A study of Mus musculus and Rattus norvegicus with 26 samples.

Results

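The set is the extracellular matrix and integrin genes, 98 of the 13695 gene symbols that appear in any of 6 lists of intron-derived RNA from rat and mouse cells. Its members were taken by symbol alone: genes whose name begins with Col, Lama, Lamb or Lamc followed by a digit, or with Itga, Itgb, Adamts or Fbn. They are 10 fibrillar collagens, 6 basement membrane and network collagens, 9 collagens of the fibril-associated (FACIT) kind, 11 transmembrane and other collagens, 11 laminin chains, 17 integrin alpha and 7 integrin beta chains, 17 ADAMTS proteases, 3 ADAMTS-like proteins and 2 fibrillins. The other 5 (Col4a3bp, Itgb1bp1, Itgb1bp2, Itgb3bp and Itgbl1) share a prefix with the rest but are not themselves collagens or integrin chains.

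The study looked for introns that remain in cytoplasmic RNA, by sequencing RNA of isolated dendrites, neuron cell bodies (somas) and single cells after amplification from a poly(T) primer that carries a T7 promoter. Mouse dendrites and somas came from cultured hippocampal neurons of C57BL/6 embryos of day 18, with 3 libraries of each, and rat dendrites (2 libraries) and somas (3 libraries) from Sprague-Dawley embryos of day 18. Brown adipose tissue (BAT) cells, 6 libraries, came from interscapular fat of CD-1 embryos of day 17.5 and were picked by their shape after collagenase digestion, and cardiomyocytes, 9 libraries, came from ventricles of transgenic C57BL/6 embryos of day 14.5 that were hemizygous for the Fucci cell cycle probe mAG-hGem, driven by the ubiquitous cytomegalovirus promoter, and were sorted by fluorescence. The labels name no drug or other treatment. A dendrite library joins many dendrites, and the authors pooled all libraries of a group into 1 list, so that there is 1 value per intron and group, no replicate error and no test. The labels tie all 26 libraries to the lists, while the paper counts fewer BAT cells and fewer cardiomyocytes than there are libraries, so which of them entered those 2 lists is not known.

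Collagens, laminins and fibrillins are secreted proteins that assemble into fibrils, basement membranes and microfibrils around cells, and integrins are paired receptors, each of an alpha and a beta chain, that hold cells to them. ADAMTS proteases cut procollagens, proteoglycans and other matrix proteins outside the cell. Basement membranes surround fat cells and heart muscle cells, and in the brain integrins and laminins take part in the growth of neurites and the upkeep of synapses.

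A value in the lists is the number of uniquely mapped reads in 1 intron of 1 RefSeq transcript, and each such intron was listed with the stretches (contigs) in which its reads cluster. A gene that is not listed had no contig that passed the authors' filters, so no limit and no fold is given for it. The lists hold 3086576 reads for mouse dendrites, 1855447 for mouse somas, 1007530 for rat dendrites, 2094541 for rat somas, 17858440 for BAT cells and 12201042 for cardiomyocytes. Reads are printed as listed, and a gene is called highest in a list by its reads per 1000000 listed reads of that list (rpm), since the totals differ. Counts depend on intron length and on amplification and are not compared between genes as levels. In its own analysis the study kept only contigs of up to 400 nt in the soma, BAT and cardiomyocyte data, since whole cells also hold unspliced RNA of the nucleus. The deposited lists hold longer contigs too, and the values by gene given here are over all contigs unless that limit is named. Less RNA per cell and fewer cells with that RNA cannot be told apart in pooled lists, and every interval covers counting error only.

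Markers of the labelled cell types were looked up in the same lists. Of 10 neuron markers, 7 were listed in mouse dendrites (2473 rpm in sum), 8 in mouse somas (10887, most of them from Syt1), 4 in rat dendrites (1718) and 6 in rat somas (8815), and also 7 in BAT cells (1613, most from Dlg2) and 3 in cardiomyocytes (926). Map2 and Syn1, both defining neuron markers, were in no list. Of 10 brown fat markers, 8 were listed in BAT cells (8132 rpm, with Fabp4 at 78875 reads and Ucp1 at 6596 reads, while Ppargc1a and Elovl3 were not listed), 6 in mouse dendrites (425), 2 in mouse somas (2.16), 1 in rat dendrites (94.3), 3 in rat somas (17.2) and 3 in cardiomyocytes (287). Of 10 cardiomyocyte markers, 8 were listed in cardiomyocytes (26468 rpm, with Ryr2 at 146224 reads and Ttn at 96560 reads, while Nkx2-5 and Gata4 were not listed), 5 in BAT cells (2779, with Nkx2-5 at 26804 reads in 1 intron), 6 in mouse dendrites (780.5), 3 in mouse somas (15.6), 1 in rat dendrites (77.4) and 2 in rat somas (60.6). The BAT and cardiomyocyte lists thus had the highest sums for their own markers, and each lacked defining markers as introns.

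Markers of cells that make much of the matrix were read in the same way. Of 10 fibroblast markers, 7 were listed in BAT cells (116 rpm, most from Postn with 1558 reads), 3 each in mouse dendrites (64.8), mouse somas (60.4) and rat dendrites (59.6), 1 in rat somas (0.955) and 0 in cardiomyocytes; Col1a1 and Col3a1 in that list are also members of the set. Of 5 endothelial markers, 4 were listed in mouse dendrites (639, most from Flt1), 4 in mouse somas (733, most from Kdr), 2 in rat dendrites (250.1), 1 in rat somas (2.86), 5 in BAT cells (206, most from Tek) and 2 in cardiomyocytes (288, most from Tek). Of 5 astrocyte markers, 4 were listed in mouse dendrites (966, most from Aldh1l1 in 1 intron), 3 in mouse somas (142), 1 in rat dendrites (68.5), 2 in rat somas (120.3), 4 in BAT cells (45.4) and 0 in cardiomyocytes. Of 5 skeletal muscle markers, 2 were listed in BAT cells (18.7) and 1 in cardiomyocytes (7.21), in each case with Ckm as the most read, and 0 in the 4 neuronal lists. The part of other cell types in the values of the matrix genes was not tested.

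The contigs of the members can be read in the mouse genome, and the ends of some lie at runs of A, the kind of sequence to which a poly(T) primer can anneal. The 5 sequences that follow come from introns of the transcript with at least the high read minimum of the study (2 to the power of 8 reads) and a single contig off annotated exons, and are among the most read of each mouse list with a run of 10 or more A within 50 nt of the 3′ end of the contig. Each is the transcript strand of build NCBIM37 (mm9), 5′ to 3′, with the last 100 bases of the contig followed by the next 50 bases, and capitals mark the run. Col13a1 intron 17 in mouse dendrites (490 reads) lies at chr10:61347834-61347983 (minus strand), with the 12 A directly before the end of the contig, and Adamts9 intron 16 in mouse dendrites (392 reads) lies at chr6:92806615-92806764 (minus strand), with 13 A at the same place. Col25a1 intron 18 in mouse somas (1082 reads) lies at chr3:130242738-130242887 (plus strand), with a run of 35 A across the end of the contig. Col4a3 intron 17 in BAT cells (5829 reads) lies at chr1:82660419-82660568 (plus strand) with 12 A, and Itgb5 intron 8 in cardiomyocytes (2350 reads) lies at chr16:33909129-33909278 (plus strand) with 12 A. In these 5 the run lies at least in part inside the contig.
Col13a1 intron 17, mouse dendrite: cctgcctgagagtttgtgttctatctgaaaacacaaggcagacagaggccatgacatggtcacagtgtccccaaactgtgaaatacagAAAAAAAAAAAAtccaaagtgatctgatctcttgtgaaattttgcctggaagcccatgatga
Adamts9 intron 16, mouse dendrite: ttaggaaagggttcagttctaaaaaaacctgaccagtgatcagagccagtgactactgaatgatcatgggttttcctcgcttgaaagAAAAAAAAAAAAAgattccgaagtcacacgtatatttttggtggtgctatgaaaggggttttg
Col25a1 intron 18, mouse soma: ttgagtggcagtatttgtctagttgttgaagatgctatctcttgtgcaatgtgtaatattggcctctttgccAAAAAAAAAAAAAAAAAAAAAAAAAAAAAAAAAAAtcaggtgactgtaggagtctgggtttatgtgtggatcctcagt
Col4a3 intron 17, BAT cell: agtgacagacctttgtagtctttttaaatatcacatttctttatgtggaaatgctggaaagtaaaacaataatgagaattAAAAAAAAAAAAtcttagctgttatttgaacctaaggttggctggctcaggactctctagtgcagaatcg
Itgb5 intron 8, cardiomyocyte: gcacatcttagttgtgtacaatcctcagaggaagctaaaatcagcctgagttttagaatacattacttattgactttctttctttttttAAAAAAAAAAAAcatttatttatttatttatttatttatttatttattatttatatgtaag

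Runs of T at the 5′ end of a contig are the same feature on the other strand, and the libraries keep no strand. The 4 sequences that follow, 1 for each mouse list, were chosen by the same rule for the 5′ end and show 50 bases before the contig and its first 100 bases, with the run of T in capitals. Itgae intron 23 in mouse dendrites (954 reads) lies at chr11:72945529-72945678 (plus strand), with 12 T that open the contig, and Itgb6 intron 13 in mouse somas (2735 reads) lies at chr2:60447161-60447310 (minus strand), with 10 T just inside it. Col19a1 intron 14 in BAT cells (666 reads) lies at chr1:24448897-24449046 (minus strand) and Itga1 intron 12 in cardiomyocytes (5876 reads) at chr13:115786329-115786478 (minus strand), both with 10 T before the contig.
Itgae intron 23, mouse dendrite: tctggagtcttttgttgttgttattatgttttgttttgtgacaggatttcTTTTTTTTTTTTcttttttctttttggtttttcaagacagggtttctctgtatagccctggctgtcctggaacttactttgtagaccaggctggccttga
Itgb6 intron 13, mouse soma: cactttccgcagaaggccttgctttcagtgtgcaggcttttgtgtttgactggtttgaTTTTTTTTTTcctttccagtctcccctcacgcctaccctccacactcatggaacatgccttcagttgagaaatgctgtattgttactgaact
Col19a1 intron 14, BAT cell: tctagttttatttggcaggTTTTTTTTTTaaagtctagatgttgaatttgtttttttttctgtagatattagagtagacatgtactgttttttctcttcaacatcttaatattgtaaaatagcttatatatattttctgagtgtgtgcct
Itga1 intron 12, cardiomyocyte: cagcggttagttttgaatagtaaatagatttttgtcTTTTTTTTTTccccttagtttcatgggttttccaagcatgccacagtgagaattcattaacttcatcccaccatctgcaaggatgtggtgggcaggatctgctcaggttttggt

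Matrix and integrin genes were found as introns in all 6 lists. They were 81 of 8607 genes in mouse dendrites, 53 of 5895 in mouse somas, 28 of 4485 in rat dendrites, 17 of 3393 in rat somas, 82 of 10220 in BAT cells and 53 of 6205 in cardiomyocytes. Their reads were 1.06% of the listed reads in mouse dendrites (95% interval by the exact Clopper-Pearson method 1.05 to 1.07), 1.56% in mouse somas (1.55 to 1.58), 0.613% in rat dendrites (0.598 to 0.628), 0.823% in rat somas (0.810 to 0.835), 0.985% in BAT cells (0.980 to 0.989) and 1.81% in cardiomyocytes (1.80 to 1.82). The share was highest in cardiomyocytes and lowest in rat dendrites, but both ends of this order turned with other settings. With the study's limit of 400 nt in the soma, BAT and cardiomyocyte lists, cardiomyocytes (0.897%) lay below mouse somas (1.71%), and rat somas had 0.0514%. Their introns were 1.45% of all listed introns in mouse dendrites (283 introns), 1.10% in mouse somas (116), 0.633% in rat dendrites (47), 0.395% in rat somas (21), 1.27% in BAT cells (380) and 1.10% in cardiomyocytes (144).

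Over all contigs, the members in mouse dendrites, BAT cells and cardiomyocytes had more listed introns and more reads per gene than the list as a whole. A member gene had 3.49 listed introns in mouse dendrites beside 2.26 over all genes, and 4.63 in BAT cells beside 2.94; the values were 2.19 and 1.79 in mouse somas, 1.68 and 1.66 in rat dendrites, 1.24 and 1.57 in rat somas, and 2.72 and 2.10 in cardiomyocytes. The median reads of a member gene were 238 in mouse dendrites beside 78 over all genes, 544 in BAT cells beside 169, and 242 in cardiomyocytes beside 158. In the other lists the members' median was the lower, with 18 beside 46 in mouse somas, 27 beside 32 in rat dendrites and 18 beside 54 in rat somas. Medians and introns per gene were not compared with all genes under the study's limit on contig length. Whether the lead of members in BAT cells and cardiomyocytes holds under that limit is therefore not known.

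Genes that reach that high read minimum in at least 1 intron were counted as well. Such members were 29 of 81 in mouse dendrites (35.8%, Wilson 95% interval 26.2 to 46.7, beside 23.5% of all genes), 9 of 53 in mouse somas (17.0%, 9.20 to 29.2, beside 18.7%) and 6 of 28 in rat dendrites (21.4%, 10.2 to 39.5, beside 15.8%). They were 2 of 17 in rat somas (11.8%, 3.29 to 34.3, beside 30.4%), 45 of 82 in BAT cells (54.9%, 44.1 to 65.2, beside 40.2%) and 26 of 53 in cardiomyocytes (49.1%, 36.1 to 62.1, beside 42.9%). The background lay inside the members' interval in mouse somas, rat dendrites, rat somas and cardiomyocytes, and below it in mouse dendrites and BAT cells. With contigs of at most 400 nt, such members were 24 of 78 in BAT cells (30.8%, Wilson 95% interval 21.6 to 41.7, beside 25.7% of all genes), 14 of 49 in cardiomyocytes (28.6%, beside 25.6%), 5 of 45 in mouse somas (11.1%, beside 11.6%) and 0 of 13 in rat somas (beside 14.0%). The background then lay inside the members' interval in BAT cells too. At 4 times the high read minimum the order turned in mouse dendrites, with 4.94% of members beside 6.34% of all genes.

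A few introns carried much of the set's reads, more so in the somas and the rat lists. The most read member intron held 10.7% of member reads in mouse dendrites (Adamts16 intron 11), 27.9% in mouse somas (Col19a1 intron 15), 43.4% in rat dendrites (Lamc1 intron 27), 79.9% in rat somas (Adamts2 intron 19), 9.07% in BAT cells (Itga1 intron 6) and 19.5% in cardiomyocytes (Adamts19 intron 12). The top 3 introns together held 19%, 54.9%, 68.4%, 97.3%, 23.6% and 36.1% in the same order. Without that 1 intron the set's share of listed reads was 0.348% in rat dendrites and 0.166% in rat somas, so that rat somas were then the lower.

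Many of the leading genes of the whole-cell lists lose most of their reads under the study's limit of 400 nt. In cardiomyocytes 14 of 43965 reads of Adamts19 were left, 5131 of 46641 for Fbn2, 68 of 13491 for Col4a6, 13 of 11077 for Itga1, 106 of 7987 for Lamb1, 152 of 5320 for Lama2, 6409 of 18821 for Lama4, 12180 of 21217 for Adamts6 and 2882 of 15939 for Adamts9. In BAT cells 74 of 17325 were left for Itga1, 1488 of 21160 for Lama2, 1872 of 14919 for Col12a1, 64 of 10068 for Adamts6, 86 of 6264 for Adamts9, 108 of 5937 for Col4a3, 1436 of 6196 for Lamb1, 3883 of 9239 for Lama4 and 10982 of 12525 for Col11a1. In mouse somas it was 8661 of 12281 for Col19a1, 414 of 5661 for Lamb1, 2773 of 3868 for Itgb6 and 452 of 2221 for Col25a1, and in rat somas 12 of 13786 for Adamts2, while Lamc1 was no longer listed. Orders of lists named below for single genes are therefore orders over all contigs. Under the limit the lead of cardiomyocytes does not hold for Adamts19, Col4a6, Itgav and Col4a2 (2 reads beside 250 in BAT cells). Itga1 then had 74 reads in BAT cells and 13 in cardiomyocytes, beside 591 in mouse dendrites. Col4a3 had 108 in BAT cells beside 410 in mouse dendrites, and Lama2 had 152 in cardiomyocytes beside 376 in mouse dendrites.

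The roles behind the reads differed from list to list. ADAMTS proteases held 30.9% of member reads in mouse dendrites, 80.2% in rat somas and 37.1% in cardiomyocytes, beside 6.06% in mouse somas, 16.5% in rat dendrites and 12.6% in BAT cells. Laminin chains held 47.8% in rat dendrites and 26.8% in BAT cells, beside 7.53% in mouse dendrites, 20.2% in mouse somas, 16.5% in rat somas and 14.9% in cardiomyocytes. FACIT collagens led in mouse somas with 43.0% and fibrillins reached 21.9% in cardiomyocytes, where fibrillar collagens held 0.0195%. These shares are over all contigs. Under the limit of 400 nt ADAMTS proteases no longer led in rat somas. Adamts2 then had 12 reads there, beside 149 for Itgbl1 and 96 for Col5a1.

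**Figure D1:**
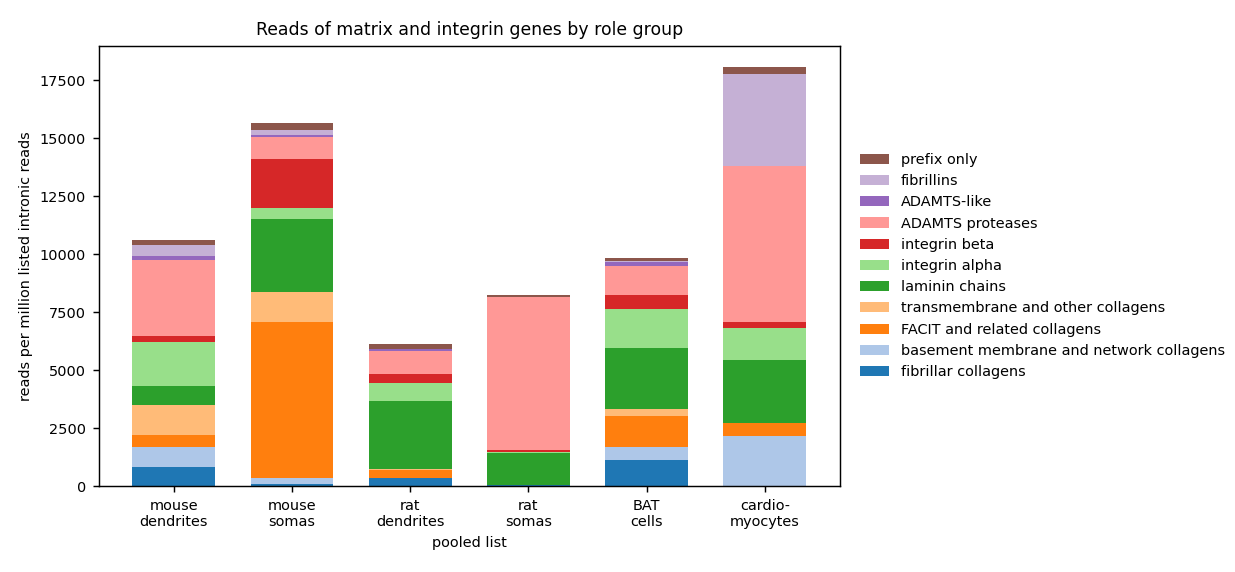
Reads per 1000000 listed reads (vertical axis) of each role group (coloured parts of a bar), 1 bar for each of the 6 lists (horizontal axis). ADAMTS proteases are the largest part in mouse dendrites (30.9%), rat somas (80.2%) and cardiomyocytes (37.1%), FACIT collagens in mouse somas (43.0%), and laminin chains in rat dendrites (47.8%) and BAT cells (26.8%), as percent of member reads. Values are over all contigs, and the lead in rat somas does not hold with contigs of at most 400 nt.

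Fibrillar collagens, the chains of the rope-like fibrils of connective tissue, were listed with 8 genes in mouse dendrites, 4 in mouse somas, 3 in rat dendrites, 1 in rat somas, 9 in BAT cells and 4 in cardiomyocytes. The most read in the mouse lists was Col11a1, a minor chain that is built into cartilage fibrils, with 1630 reads in 5 introns in mouse dendrites, 126 in 3 introns in mouse somas, 12525 in 16 introns in BAT cells and 36 in 2 introns in cardiomyocytes. Most of its BAT reads, 9794, lay in intron 57. Col27a1, a chain of thin fibrils in cartilage, had 426 reads in mouse dendrites, 46 in mouse somas and 3845 in BAT cells (8 introns), and Col24a1 had 319 in mouse dendrites and 2044 in BAT cells (8 introns). The chains of the major fibrils of skin, bone and vessel walls were listed in part: Col1a1 had 242 in BAT cells, all in a contig on an annotated exon of the gene, and 28 in rat dendrites, and Col1a2 had 97 in BAT cells, 47 in mouse dendrites and 291 in rat dendrites. Col3a1 had 195 in BAT cells and 104 in mouse dendrites, and none of these 3 was listed in mouse somas, rat somas or cardiomyocytes. Col5a2, which starts the assembly of type I fibrils together with Col5a1, and Col5a3 were in all 4 mouse lists, Col5a2 with 48, 2, 513 and 2 reads and Col5a3 with 9, 2, 12 and 4 in mouse dendrites, mouse somas, BAT cells and cardiomyocytes. Col5a1 had 15 reads in mouse dendrites, 26 in rat dendrites, 96 in rat somas and 642 in BAT cells.

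Collagen IV, the meshwork of basement membranes, was listed with all 6 chains in BAT cells and cardiomyocytes and with 5 in mouse dendrites and mouse somas, where Col4a2 was missing, but with 1 chain in each rat list. Col4a6, a chain of the basement membrane around smooth muscle, had 13491 reads in cardiomyocytes, 1251 in mouse dendrites, 425 in mouse somas and 68 in BAT cells, most of them in intron 2, which is 146076 nt long. Its neighbour on the genome Col4a5 had 5057 reads in cardiomyocytes, 1353 in BAT cells, 425 in mouse dendrites and 4 in mouse somas. Over all contigs the pair was thus most read in cardiomyocytes. Col4a3, a chain of the kidney filter's membrane, had 5937 reads in BAT cells, of which 5829 lay in intron 17, with 673 in cardiomyocytes, 410 in mouse dendrites (8 introns), 6 in mouse somas and 2 in rat dendrites. Col4a4, its partner there, had 2623 reads in cardiomyocytes, 445 in mouse dendrites (8 introns), 114 in BAT cells, 12 in mouse somas and 3 in rat somas. Col4a1 and Col4a2 form the common network of nearly every basement membrane: Col4a1 had 1492 reads in BAT cells, 929 in cardiomyocytes, 88 in mouse dendrites and 8 in mouse somas, and Col4a2 had 3343 in cardiomyocytes and 763 in BAT cells. Over all contigs the 3 pairs did not share an order, since Col4a3 was most read in BAT cells and Col4a4 in cardiomyocytes. The BAT lead of Col4a3 does not hold under the limit of 400 nt, with 108 reads left beside 410 in mouse dendrites.

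FACIT collagens sit on the surface of other fibrils and link them to their surroundings. Col19a1, which some interneurons of the brain make, had 12281 reads in 11 introns in mouse somas, 5352 in 12 introns in BAT cells, 274 in 11 introns in mouse dendrites and 42 in 4 introns in cardiomyocytes. The soma reads lay mainly in intron 15 (8094 reads). Col12a1, which binds type I collagen fibrils in tendon and muscle, had 14919 reads in 17 introns in BAT cells (11136 of them in intron 54), 6770 in cardiomyocytes and 105 in mouse dendrites. Col22a1, a collagen of tissue junctions such as that of muscle and tendon, had 505, 194, 2608 and 137 reads in mouse dendrites, mouse somas, BAT cells and cardiomyocytes, and Col14a1 had 157, 8, 74 and 107, with 2 more in rat dendrites. Col9a1, a cartilage chain, was listed with 594 reads in mouse dendrites, 360 in rat dendrites and 26 in BAT cells, and Col20a1 with 835 reads in BAT cells and in no other list.

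Transmembrane and other collagens had most genes in BAT cells (10) and mouse dendrites (9). Col6a4, a chain of the beaded filaments of collagen VI, had 3143 reads in 9 introns in BAT cells, 279 in mouse dendrites and 14 in mouse somas. Col25a1, a membrane collagen of neurons whose shed part is found in amyloid plaques, had 2221 reads in 8 introns in mouse somas, 935 in BAT cells, 337 in mouse dendrites and 2 in cardiomyocytes. Col13a1, a membrane collagen of the neuromuscular junction, had 710 reads in mouse dendrites, 10 in mouse somas, 2 in rat dendrites, 20 in BAT cells and 6 in cardiomyocytes, and Col23a1 had 12, 10, 218 and 101 in the mouse lists in their usual order. Col15a1 and Col18a1, proteoglycan collagens of basement membranes, were most read in mouse dendrites, Col15a1 with 1171 reads beside 134 in mouse somas and 4 in BAT cells, and Col18a1 with 745 beside 8 and 26. Neither was listed in cardiomyocytes or in rat.

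Laminins are cross-shaped trimers of an alpha, a beta and a gamma chain that organise basement membranes, and 11 chains were listed in BAT cells, 8 in mouse dendrites, 7 in mouse somas, 6 in cardiomyocytes, 3 in rat dendrites and 2 in rat somas. Lama2, the alpha chain of muscle and nerve laminin, had 21160 reads in 16 introns in BAT cells (14364 in intron 45), 5320 in 8 introns in cardiomyocytes, 376 in 9 introns in mouse dendrites and 88 in 3 introns in mouse somas. Lama4, the alpha chain of vessels, fat and muscle, had 18821 reads in 9 introns in cardiomyocytes, 9239 in 17 introns in BAT cells, 465 in 7 introns in mouse dendrites and 10 in 1 intron in mouse somas. Over all contigs both were thus read most in the cells from fat and heart. Lamb1, the beta chain of most embryonic laminins, had 7987 reads in cardiomyocytes (7246 in intron 30), 6196 in 12 introns in BAT cells (4760 of them in intron 28, on an annotated exon), 5661 in 8 introns in mouse somas (5095 in intron 12) and 12 in 4 introns in mouse dendrites, and relative to listed reads it was highest in mouse somas (3051 rpm). Lama1, the alpha chain of the earliest embryonic laminin, was instead read most in mouse dendrites, with 1361 reads (1233 in intron 6) beside 2 in mouse somas, 2 in rat somas and 184 in BAT cells. Lama3, the alpha chain of epithelial laminin, had 99 reads in mouse dendrites, 3 in mouse somas, 10 in BAT cells and 377 in cardiomyocytes.

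Of the gamma chains, Lamc1, which most laminins carry, was the laminin of the rat lists, with 2682 reads in rat dendrites (2680 in intron 27) and 2843 in rat somas (all in intron 18). In mouse it had 3243 reads in BAT cells, 242 in cardiomyocytes and 12 in mouse dendrites, and it was not listed in mouse somas. Nearly all rat reads thus lay in 1 intron of each list, and the main intron differed between the lists; intron 18 was also listed in rat dendrites, without overlap of the contigs. Lamc3 had 1858 in BAT cells, 20 in mouse dendrites and 14 in mouse somas. It was not listed in cardiomyocytes.

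Integrin alpha chains set what an integrin binds, and all 17 of the set were listed in mouse dendrites, with 14 in BAT cells, 10 in mouse somas, 9 in cardiomyocytes, 3 in rat dendrites and 2 in rat somas. Itga1, the alpha chain of a collagen and laminin receptor, had 17325 reads in 9 introns in BAT cells (15951 in intron 6), 11077 in cardiomyocytes (5876 in intron 12), 591 in mouse dendrites, 114 in rat dendrites and 2 in mouse somas. Itgav, the alpha chain of receptors for vitronectin and latent TGF-beta, had 3261 reads in cardiomyocytes, 1200 in 11 introns in BAT cells, 100 in mouse dendrites and 18 in mouse somas. Itga5, the alpha chain of the main fibronectin receptor, had 1693 reads in cardiomyocytes, 328 in BAT cells and 181 in mouse dendrites. Over all contigs and relative to listed reads, Itga1 was highest in BAT cells (970.1 rpm) and cardiomyocytes (908 rpm), and Itgav and Itga5 in cardiomyocytes (267 and 139 rpm). Itga9, which binds tenascin and other ligands, had 2848 reads in 11 introns in BAT cells, 556 in cardiomyocytes, 463 in mouse dendrites and 48 in mouse somas, and Itga6, a laminin receptor chain, had 1926 in BAT cells, 663 in mouse dendrites and 90 in cardiomyocytes. Itga8, a receptor chain for nephronectin, had 1208 reads in BAT cells, 384 in mouse dendrites, 26 in mouse somas and 6 in cardiomyocytes.

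Some alpha chains were known from other cells than those of the labels. Itga4, a receptor chain of white blood cells that binds fibronectin, had 3470 reads in BAT cells (3201 of them in intron 15, on an annotated exon), 642 in mouse somas, 240 in mouse dendrites and 122 in rat somas. Itgae, the alpha chain of lymphocytes in epithelia, had 967 reads in mouse dendrites (954 in intron 23), 684 in BAT cells and 5 in mouse somas. Itgam, an alpha chain of microglia and other phagocytes, had 838 reads in 6 introns in mouse dendrites, 701 in rat dendrites (666 in intron 7), 508 in BAT cells and 70 in mouse somas. None of these 3 was listed in cardiomyocytes. Itga11, a collagen receptor chain of fibroblasts, had 511 reads in mouse dendrites, 2 in mouse somas, 103 in BAT cells and 26 in cardiomyocytes, and Itgad, another chain of white blood cells, had 140 in mouse dendrites and was in no other list.

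Integrin beta chains join the receptor to the cytoskeleton. Itgb1, the partner of most alpha chains, had 793 reads in 7 introns in BAT cells, 874 in cardiomyocytes, 18 in mouse dendrites, 364 in rat dendrites (361 in intron 4) and 43 in rat somas (all in intron 4), and it was not listed in mouse somas. Itgb6, whose receptor releases active TGF-beta in epithelia, had 4482 reads in BAT cells, 3868 in mouse somas (2735 in intron 13), 12 in mouse dendrites, 130 in rat somas and 4 in rat dendrites. Over all contigs it was thus read more in somas than in dendrites in both species, and under the limit of 400 nt it was not listed in rat somas. Itgb5, a vitronectin receptor chain, had 3578 reads in BAT cells, 2588 in cardiomyocytes and 310 in mouse dendrites. Itgb8, another chain that activates TGF-beta, had 2038 reads in BAT cells, 156 in mouse dendrites, 2 in mouse somas and 2 in cardiomyocytes, and Itgb4, the chain of hemidesmosomes, had 15, 102, 84 and 4 in mouse dendrites, mouse somas, BAT cells and cardiomyocytes.

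ADAMTS proteases had the most genes in mouse dendrites (13), with 11 in BAT cells, 7 in cardiomyocytes, 6 in mouse somas, 5 in rat dendrites and 4 in rat somas. Adamts19 had 43965 reads in cardiomyocytes (43113 in intron 12), 882 in rat dendrites and 5 in rat somas, and was not listed in mouse neurons or BAT cells. Adamts6 had 21217 reads in 9 introns in cardiomyocytes (11766 in intron 15), 10068 in BAT cells (9416 in intron 12) and 56 in mouse dendrites. Adamts9, which cuts versican, was in all 6 lists, with 652 reads in mouse dendrites, 14 in mouse somas, 62 in rat dendrites, 20 in rat somas, 6264 in 8 introns in BAT cells and 15939 in cardiomyocytes (13057 in intron 6). These 3 proteases gave most of the family's reads in cardiomyocytes. Adamts16 had 5176 reads in mouse dendrites, 3497 of them in intron 11 and 1490 in intron 8, beside 8 in mouse somas, and was in no other list. Adamts2, which trims the amino end of procollagens, had 13786 reads in rat somas (13774 in intron 19), 10 in rat dendrites, 983 in mouse dendrites, 64 in mouse somas and 627 in BAT cells. Adamts17, mutated in a short stature syndrome, was spread over more introns, with 1626 reads in 8 introns in mouse dendrites, 1122 in 8 introns in mouse somas, 927 in 7 introns in BAT cells and 136 in 3 introns in cardiomyocytes.

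The ADAMTS-like proteins, which lack the protease domain and of which several bind microfibrils, were 3 of the set. Adamtsl3 had 413 reads in mouse dendrites, 126 in mouse somas, 44 in rat dendrites, 494 in 9 introns in BAT cells and 336 in cardiomyocytes. Adamtsl1 had 2417 reads in BAT cells, 121 in mouse dendrites and 2 in mouse somas. The fibrillins, the rods of the microfibrils on which elastin is laid, were in the 4 mouse lists and in no rat list. Fbn2, the fibrillin that is made mainly in embryos, had 46641 reads in 12 introns in cardiomyocytes (23181 in intron 11), 638 in mouse dendrites, 432 in mouse somas and 417 in 10 introns in BAT cells, and Fbn1 had 1751 in cardiomyocytes, 750 in mouse dendrites, 22 in mouse somas and 166 in BAT cells. Relative to listed reads Fbn2 was highest in cardiomyocytes, with 3823 rpm beside 233 rpm in mouse somas, and Fbn1 in mouse dendrites, with 243 rpm beside 144 rpm in cardiomyocytes.

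The genes that share only a prefix held between 0.876% and 3.84% of member reads. Itgbl1, a secreted protein that resembles part of an integrin beta chain, was in all 6 lists, with 259 reads in mouse dendrites, 132 in mouse somas, 233 in rat dendrites, 149 in rat somas, 8 in BAT cells and 1 in cardiomyocytes. Its reads were highest in the 4 neuronal lists. Itgb3bp, a centromere protein, had 208, 320, 575 and 3271 reads and Itgb1bp1, which binds the tail of integrin beta 1, had 2, 4, 143 and 8 in mouse dendrites, mouse somas, BAT cells and cardiomyocytes. Col4a3bp, a ceramide carrier, had 1978 reads in BAT cells, 304 in mouse dendrites, 30 in mouse somas, 4 in rat dendrites and 2 in rat somas.

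Members recurred across lists. In all 6 lists there were 2 of the 98 (2.04%, beside 6.24% of all genes), and in all 4 mouse lists 33 of the 95 listed in mouse (34.7%, beside 24.6%). The 33 included Lamb1, Lama2, Lama3 and Lama4, 5 of the 6 collagen IV chains, both fibrillins, and Itga1, Itga8, Itga9, Itga11 and Itgav. In 1 list alone there were 14 members (14.3%, beside 25%), of which 6 were in BAT cells (Adamts15, Adamts20, Col7a1, Col20a1, Lama5 and Lamb3), 4 in mouse dendrites (Adamts4, Adamts8, Col9a3 and Itgad), 2 in cardiomyocytes (Adamts13 and Col11a2), 1 in rat dendrites (Itgb7) and 1 in rat somas (Col6a3).

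Dendrites and somas are parts of a neuron, and comparing them asks which introns reach the dendrite. The paper describes the soma samples as single cells and the samples as independent, so the lists are not matched parts of the same cells. In mouse, all 53 members of the soma list were also in the dendrite list (100%, beside 80.4% of all genes), and they made 65.4% of the 81 dendrite members (beside 55.1%). With introns of 16 or more reads alone, 24 of 27 soma members were also in the dendrite list (88.9%, beside 68.5%), and they made 35.8% of 67 dendrite members (beside 41.8%), so that the second share then lay below that of all genes. In rat, 12 members were in both lists, 42.9% of those in dendrites (beside 48.3%) and 70.6% of those in somas (beside 63.8%), and with 16 or more reads 4 members, 25% (beside 39.2%) and 50.0% (beside 49.5%). Between species, 22 members were in both dendrite lists, 27.2% of the mouse members (beside 32.1%) and 78.6% of the rat members (beside 61.6%), a comparison added after seeing the data.

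Among members in both lists with at least 32 reads in 1 of them, more of those in mouse neurons were higher in dendrites than in somas, relative to the listed reads of each. Of 49 members compared, 31 were 4-fold or more higher in dendrites (63.3%, beside 36.7% of all genes) and 6 were 4-fold or more higher in somas (12.2%, beside 24.9%), with a median log2 ratio of 2.85 beside 0.55 over all genes. Of the 31, however, 25 had under 32 reads in somas and entered only through the list in which they were high, and the same holds for 3 of the 6. With at least 32 reads in both lists, a setting added after seeing the data, 20 members were compared, of which 6 were higher in dendrites (beside 15.6% of all genes) and 3 in somas (beside 21.7%), with a median of 0.54 beside -0.38. The count of 31 and its median thus rest mainly on genes with few soma reads. The contigs behind these sums covered a median of 1466 nt per member in dendrites and 501 nt in somas (1105 and 623.5 nt over all genes), and the median reads per nt were 0.227 and 0.0649. Per nt of contig, a scale added after seeing the data, the counts were 17 and 7 (beside 26.1% and 26.0% of all genes) and the median log2 ratio was 1.21 beside -0.19. Fewer members were thus 4-fold higher in dendrites per nt. The same 49 members were compared, including those that entered only through the dendrite list, so no direction is read from these counts.

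The members furthest towards dendrites were Lama1 with a log2 ratio of 8.68 (exact 95% counting interval 6.82 to 11.72, on 2 soma reads), Adamts16 with 8.60 (7.62 to 9.82), Itga1 with 7.47 (5.61 to 10.52, on 2 soma reads), Itga11 with 7.26 (5.40 to 10.31, on 2 soma reads) and Itgae with 6.86 (5.63 to 8.49). They are a laminin chain, a protease and 3 alpha chains, each with under 10 reads in somas. Furthest towards somas were Lamb1 with -9.62 (-10.57 to -8.81), Itgb6 with -9.07 (-10.02 to -8.26), Col19a1 with -6.22 (-6.40 to -6.05), Itgb4 with -3.50 (-4.39 to -2.71) and Col25a1 with -3.45 (-3.62 to -3.29). Of these, Lamb1 and Itgb6 had 12 dendrite reads each and Itgb4 had 15, so they entered only through the soma list. The contigs of Lamb1 covered 743 nt in dendrites and 3234 nt in somas, those of Itgb6 957 and 2190 nt, and those of Col19a1 3387 and 9508 nt. Lama1 and Lamb1, chains of the same laminin, lay at opposite ends of this order. Each entered only through the list in which it was high, so no direction is read from the pair.

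The rat lists allowed 8 members to be compared. Of these 3 were 4-fold or more higher in dendrites (beside 35.3% of all genes) and 2 in somas (beside 30.3%), with medians of 1.34 and 0.22 for members and for all genes and covered lengths of 742 and 691 nt; per nt the counts were 2 and 2 (beside 30.2% and 25.5% of all genes). With at least 32 reads in both lists 3 members were left, 1 higher in dendrites and 0 in somas (beside 22.9% and 20% of all genes). Adamts19 (8.52), Itgb1 (4.14) and Adamts9 (2.69) were higher in dendrites, Itgb6 (-3.97) and Adamts2 (-9.37) in somas, and Itgbl1 (1.70), Lamc1 (0.97) and Col5a1 (-0.83) were less than 4-fold apart. Compared in both species were 4 members: Adamts9 at 4.81 in mouse and 2.69 in rat, Itgb6 at -9.07 and -3.97, Itgbl1 at 0.24 and 1.70, and Adamts2 at 3.21 and -9.37. The sign was opposite for Adamts2 and the same for the other 3. However, Adamts9 had 14 soma reads in mouse and 20 in rat, and Itgb6 12 and 4 dendrite reads. Both thus entered only through the list in which they were high, so no agreement between species is read from them. Per nt of contig the mouse value of Adamts2 was 0.04, near no difference, beside -7.09 in rat, since its mouse contigs covered 2204 nt in dendrites and 245 nt in somas, and the mouse value of Itgbl1 turned to -0.92. The rat value of Adamts2 rests on 1 contig of 1121 nt: with contigs of at most 400 nt it had 12 soma reads beside 10 dendrite reads, too few to be compared.

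BAT cells and cardiomyocytes share a mesodermal origin and are set side by side as single cells of other tissues. In both lists were 48 members, 58.5% of those in BAT cells (beside 53.2%) and 90.6% of those in cardiomyocytes (beside 87.7%); with 16 or more reads these were 47.8% (beside 46.0%) and 89.2% (beside 79.8%). Of 43 compared, 15 were 4-fold or more higher in BAT cells (34.9%, beside 36.3%) and 10 in cardiomyocytes (23.3%, beside 29.7%), with a median log2 ratio of 0.13 beside 0.36. These shares were near those of all genes. Of the 15, 8 had under 32 cardiomyocyte reads and entered only through the BAT list. In the same way, 2 of the 10 had under 32 BAT reads. The contigs covered a median of 2434 nt per member in BAT cells and 755 nt in cardiomyocytes (1659 and 693 nt over all genes), with 0.416 and 0.506 reads per nt. Per nt the split turned, with 9 members higher in BAT cells and 17 in cardiomyocytes (beside 21.1% and 35.7% of all genes) and medians of -1.08 for members and -0.85 for all genes. With at least 32 reads in both lists 7 of 32 members were higher in BAT cells and 8 in cardiomyocytes (beside 21.0% and 31.1% of all genes), with medians of -0.39 and -0.47.

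Furthest towards BAT cells were Itgb8 with 9.44 (7.59 to 12.49, on 2 cardiomyocyte reads), Col25a1 with 8.32 (6.46 to 11.37, on 2 reads), Col11a1 with 7.89 (7.42 to 8.41), Col5a2 with 7.45 (5.59 to 10.50, on 2 reads) and Itga2, a collagen receptor chain of platelets and epithelia, with 7.45 (4.96 to 12.76, on 1 read). They include 3 collagens. Furthest towards cardiomyocytes were Col4a6 with -8.18 (-8.55 to -7.84), Fbn2 with -7.36 (-7.50 to -7.22), Itgb1bp2, the muscle chaperone melusin, with -7.30 (-9.19 to -5.94), Lama3 with -5.79 (-6.86 to -4.89) and Col4a4 with -5.07 (-5.36 to -4.80). Of these, Itgb1bp2 had 4 BAT reads and Lama3 had 10, so both entered only through the cardiomyocyte list. Fbn2 held its reads in cardiomyocytes on 11943 nt of contig, beside 3501 nt in BAT cells, and Col4a6 on 2767 nt beside 1761 nt. Under the limit of 400 nt Itgb8 had 22 BAT reads and Itgb1bp2 23 cardiomyocyte reads, too few to be compared. Col4a6 then had 68 reads in each of the lists.

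The soma list was also compared with the other cells. With BAT cells it shared 50 members, 94.3% of those in somas (beside 86.1%) and 61.0% of those in BAT cells (beside 49.7%). At 16 or more reads it shared 24, 88.9% (beside 78.7%) and 34.8% (beside 38.4%), so that the share of BAT members then lay below that of all genes. With cardiomyocytes it shared 34, 64.2% of the members of each list (beside 62.8% of all soma genes and 59.6% of all cardiomyocyte genes), and at 16 or more reads 12, 44.4% of those in somas (beside 54.3%) and 32.4% of those in cardiomyocytes (beside 46.0%), both below all genes.

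A gene can be in 2 lists through different introns, so introns were compared too. Of 652 member introns in the mouse lists 437 were in 1 list (67.0%, beside 60.5% of all introns), 168 in 2 (25.8%, beside 25.7%), 38 in 3 (5.83%, beside 10.1%) and 9 in all 4 (1.38%, beside 3.70%). Both dendrites and somas listed 47 member introns, and the contigs overlapped in 23 of them (48.9%, beside 58.0%). The overlap was 43 of 106 for dendrites and BAT cells (40.6%, beside 44.0%), 16 of 44 for dendrites and cardiomyocytes (36.4%, beside 44.9%), 26 of 57 for somas and BAT cells (45.6%, beside 52.4%) and 9 of 22 for somas and cardiomyocytes (40.9%, beside 59.8%). It was 35 of 60 for BAT cells and cardiomyocytes (58.3%, beside 65.3%) and 4 of 8 for the rat lists (50.0%, beside 66.5%). In each pair the members' share was below that of all introns. Some shares rest on few introns, the mouse pairs draw on the same 4 lists, and the differences were not tested.

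The 9 introns in all 4 mouse lists were introns 3, 8 and 19 of Adamts17, intron 1 of Col11a1, intron 11 of Col19a1, intron 2 of Col4a6, intron 5 of Fbn2, intron 20 of Itga9 and intron 6 of Itgb1bp1. In 3 of them every pair of lists overlapped: Adamts17 intron 8 (132, 8, 166 and 113 reads in mouse dendrites, mouse somas, BAT cells and cardiomyocytes), Itga9 intron 20 (9, 8, 106 and 126 reads) and Itgb1bp1 intron 6 (2, 4, 124 and 8 reads). The contigs of the last 2 lie on annotated exons, those of Itga9 on an exon of Gm10157 on the other strand and those of Itgb1bp1 on an exon of the gene itself. The contigs in Adamts17 intron 8 lie on no annotated exon, and they overlap in pairs without a stretch common to all 4 lists. At the other end, no pair overlapped in Col4a6 intron 2, with 967, 425, 42 and 13423 reads.

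Of the 38 introns in 3 mouse lists, 7 overlapped in each pair of lists: Adamts9 intron 16, Col13a1 intron 17, Col19a1 intron 15, Fbn2 intron 15, Itga1 intron 6, Itga9 intron 11 and Lamb1 intron 32. Itga1 intron 6 had 16 reads in mouse dendrites, 15951 in BAT cells and 650 in cardiomyocytes, and the 251 bases that the 3 lists have in common are shown since this is the most read member intron of the BAT list. They lie at chr13:115812809-115813059 (minus strand) in build NCBIM37 (mm9), are printed from the transcript strand and hold no run of 10 A or T, so none is in capitals. Col19a1 intron 15, the most read member intron of the soma list, had 26 reads in mouse dendrites, 8094 in mouse somas and 78 in BAT cells, with 189 bases in common.
Itga1 intron 6, shared stretch: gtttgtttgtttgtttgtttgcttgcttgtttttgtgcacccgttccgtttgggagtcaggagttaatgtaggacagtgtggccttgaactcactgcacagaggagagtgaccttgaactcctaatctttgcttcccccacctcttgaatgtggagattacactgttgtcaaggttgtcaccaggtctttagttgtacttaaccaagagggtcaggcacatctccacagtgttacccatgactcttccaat

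Matrix genes have many introns, and the annotation of the mouse build gives the share that was listed; all 101 member transcripts of the mouse lists were found in it, as were 12938 of all 13156 (98.3%). Member transcripts had 33.6 introns on average in mouse dendrites beside 13.8 over all listed transcripts, 36.1 beside 14.6 in mouse somas, 36.9 beside 13.0 in BAT cells and 35.2 beside 14 in cardiomyocytes. The listed share of members' introns was 9.67% of 2927 in mouse dendrites (Wilson 95% interval 8.65 to 10.8, beside 15.7% over all), 5.95% of 1949 in mouse somas (4.99 to 7.09, beside 11.9%), 12% of 3175 in BAT cells (10.9 to 13.1, beside 21.7%) and 7.58% of 1899 in cardiomyocytes (6.48 to 8.86, beside 14.6%). So, over all contigs, members had more listed introns per gene but a smaller share of those they have.

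A transcript enters the count with 1 listed intron, which sets a higher floor for transcripts with few introns. Among transcripts with 20 or more introns, a limit chosen after seeing the data, the members' share was 9.10% in mouse dendrites beside 12% over all, 5.62% beside 8.14% in mouse somas, 11.4% beside 16.2% in BAT cells and 7.13% beside 9.92% in cardiomyocytes. The gap narrowed and the members stayed below in each of the 4 lists. Member introns were also shorter, with a median of 1284 nt in mouse dendrites beside 1674 over all, 1518 beside 1675 in mouse somas, 1077 beside 1536 in BAT cells and 1373 beside 1623 in cardiomyocytes. With all introns weighted to the members' lengths the share over all was 14%, 11.3%, 19.8% and 14%.

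Listed introns were longer than annotated ones in members and in all transcripts, with medians for listed member introns of 3856 nt in mouse dendrites (beside 3915 nt for all listed introns), 5015.5 nt in mouse somas (beside 3812), 3303 nt in BAT cells (beside 2737) and 3708.5 nt in cardiomyocytes (beside 2762). In mouse dendrites 20.7% of member introns from 3000 to under 10000 nt were listed beside 27.8% of all such introns, and in BAT cells 1.78% of those under 300 nt beside 9.81%. In each length class of each mouse list the members' share was below that over all introns. Along the transcript, the 5′ side of transcripts with 5 or more introns held 56.9%, 55.2%, 55.8% and 54.9% of listed member introns in mouse dendrites, mouse somas, BAT cells and cardiomyocytes, beside 58.0%, 54.0%, 53.3% and 51.3% over all. The first intron was listed in 13.8%, 5.56%, 9.30% and 11.1% of member transcripts, beside 19.7%, 15.6%, 23.5% and 16.1%, and the last in 3.45%, 5.56%, 14% and 16.7%, beside 18.2%, 18.4%, 30.7% and 26.5%.

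**Figure D2:**
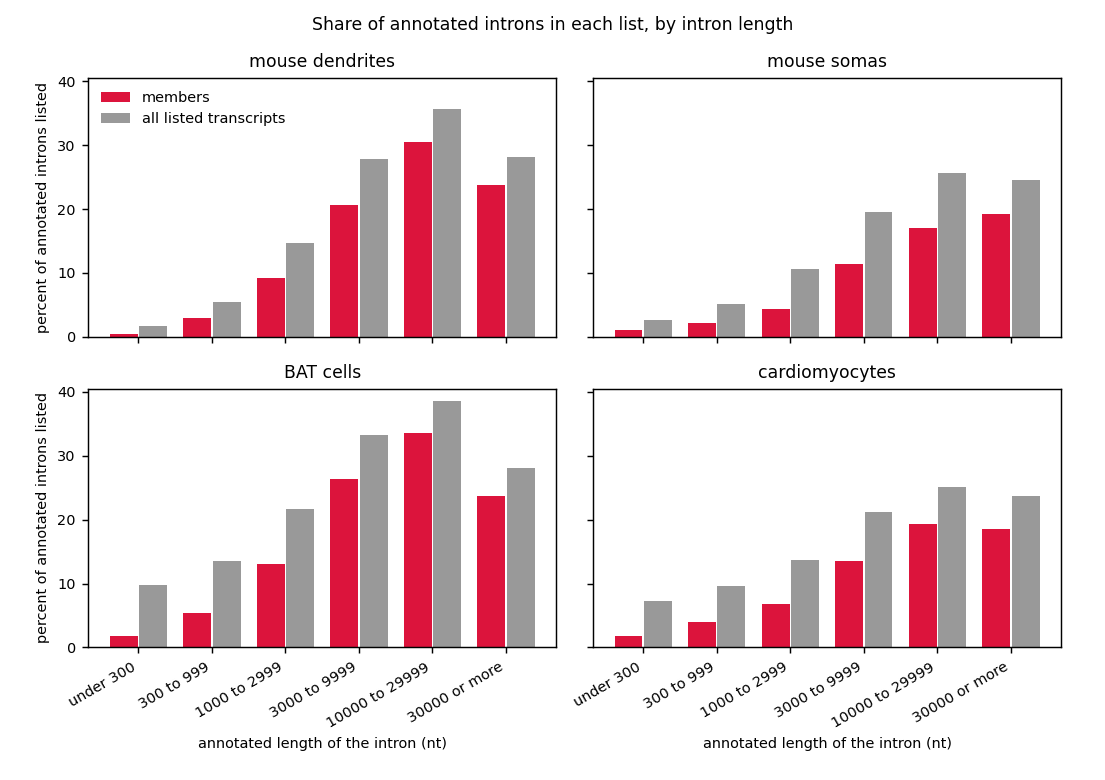
Percent of annotated introns of listed transcripts that are listed (vertical axis) by intron length class in nt (horizontal axis), for members and for all transcripts, in 4 panels for the mouse lists. The share is larger in long introns than in short ones in members and in all transcripts, and the members lie below all transcripts in each class.

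Across all member contigs, the shares with a run of A at the 3′ end or of T at the 5′ end lay near those of the whole lists, and the differences were not tested. A run of 10 or more A lay within 50 nt of the 3′ end in 30 of 337 member contigs in mouse dendrites (8.90%, beside 11.8% of all contigs), 26 of 132 in mouse somas (19.7%, beside 22.6%), 55 of 498 in BAT cells (11%, beside 8.83%) and 30 of 169 in cardiomyocytes (17.8%, beside 15.1%). A run of T lay at the 5′ end in 44 (13.1%, beside 16.8%), 10 (7.58%, beside 10.5%), 41 (8.23%, beside 8.40%) and 7 (4.14%, beside 6.75%). The opposite arrangement was rare in members as in all contigs, with a run of A at the 5′ end in 2, 0, 3 and 1 member contigs (beside 0.681%, 0.727%, 0.820% and 0.965% of all contigs) and a run of T at the 3′ end in 3, 1, 6 and 2 (beside 1.35%, 1.12%, 1.52% and 1.55%). In the 25 nt that follow the 3′ end 8.01% of member contigs of the 4 mouse lists had a run of A, beside 8.80% of all contigs, and in the 25 nt before it 6.87% beside 6.57%. In the 25 nt before the 5′ end 5.02% had a run of T beside 7.01%, and in the 25 nt after it 5.11% beside 5.67%.

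**Figure D3:**
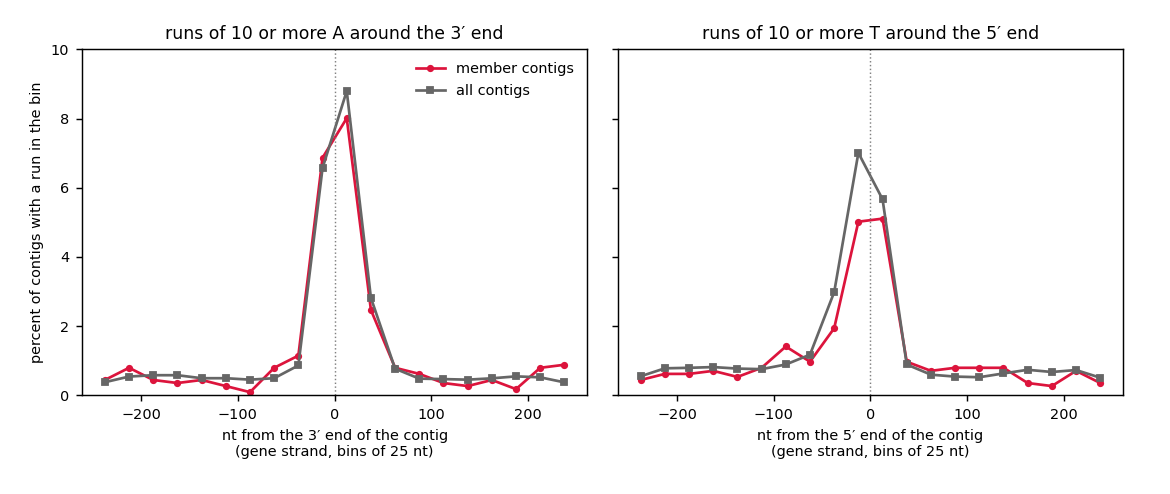
Percent of contigs with a run of 10 or more A or T (vertical axis) by distance from the contig's 3′ and 5′ ends in nt (horizontal axis, bins of 25 nt), for members and for all contigs of the 4 mouse lists. Runs of A peak at the 3′ end (8.01% of member contigs in the bin after it) and runs of T at the 5′ end (5.11% in the bin after it), in members as in all contigs.

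Member contigs had mean lengths of 345 nt in mouse dendrites (SD over contigs 260, beside a mean of 352 over all contigs), 374 in mouse somas (SD 278, beside 391), 328 in rat dendrites (SD 239, beside 363), 375 in rat somas (SD 273, beside 416), 382 in BAT cells (SD 319, beside 395) and 460.0 in cardiomyocytes (SD 460.1, beside 409). The longest, of 3695 nt, was in cardiomyocytes. On annotated exons of any transcript lay 3.86%, 3.79%, 3.01% and 7.69% of member contigs in mouse dendrites, mouse somas, BAT cells and cardiomyocytes, beside 5.04%, 9.60%, 7.52% and 11.4% of all contigs. In BAT cells these included the top contigs of Lamb1 (intron 28, 4760 reads) and Itga4 (intron 15, 3201 reads), and intron 43 of Lama2 (3649 reads), each on an exon of another transcript of the same gene, so that exon and intron reads cannot be told apart there. The Lamb1 contig also lies on an exon of Gm11053 on the other strand, and the libraries keep no strand.

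Partners of the set in matrix and adhesion were read from a list of 63 other genes. Of these 36 were listed in mouse dendrites, 21 in mouse somas, 25 in rat dendrites, 7 in rat somas, 45 in BAT cells and 25 in cardiomyocytes, with 2652, 779.9, 7653, 1279, 7583 and 8283 rpm. Of 27 other matrix proteins 22 were listed in BAT cells, led by Matn2 (50936 reads) and Nid1, which links laminin to collagen IV (17316 reads), and 10 in cardiomyocytes, led by Vcan, the proteoglycan that ADAMTS proteases cut (19681 reads). The other lists held 16, 8, 9 and 2 in mouse dendrites, mouse somas, rat dendrites and rat somas. Of 14 matrix enzymes 7, 3, 5, 1, 8 and 3 were listed in the 6 lists in their usual order, with the collagen cross-linking enzyme Loxl2 at 8038 reads in cardiomyocytes.

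Of 12 genes of the adhesion complex on the inner side of integrins, 8, 8, 6, 2, 9 and 8 were listed. Ptk2, the focal adhesion kinase, had 1493 reads in mouse dendrites, 93 in mouse somas, 856 in rat dendrites, 4 in rat somas, 3636 in BAT cells and 6719 in cardiomyocytes. Vcl, which ties integrins to actin, had 126, 44 and 157 in the first 3 of these lists, 8000 in BAT cells and 20052 in cardiomyocytes. Of 10 other matrix receptors 5, 2, 5, 2, 6 and 4 were listed, with the hyaluronan receptor Cd44 at 635, 20, 3103, 16 and 53 reads in all lists but cardiomyocytes. Among partners in both lists of a pair, 7 of 15 were 4-fold or more higher in mouse dendrites (Cd44, Fermt2, Gpc4, Lims1, Matn2, Plod2 and Ptk2) and 2 in mouse somas (Tln1 and Vcan), with a median log2 ratio of 1.88, beside 36.7% and 24.9% of all genes. Of these, Cd44, Fermt2, Gpc4, Matn2 and Plod2 had under 32 soma reads, and Tln1 and Vcan under 32 dendrite reads. Such partners entered only through the list in which they were high, so no direction is read from these counts. In rat 3 of 6 were higher in dendrites (Cd44, Mmp16 and Ptk2) and 1 in somas (Lims1), with a median of 4.11, beside 35.3% and 30.3% of all genes. All 3 had under 32 soma reads (16, 6 and 4) and entered only through the dendrite list, so no direction is read here either. Of 22 compared between BAT cells and cardiomyocytes, 6 were higher in BAT cells (Fermt2, Fn1, Ltbp2, Mmp16, Parva and Sparc) and 6 in cardiomyocytes (Bcar1, Ddr1, Efemp1, Loxl2, Ltbp1 and Vcan), with a median of 0.12, beside 36.3% and 29.7% of all genes. Here Ltbp2, Mmp16 and Parva had under 32 cardiomyocyte reads and Ddr1 under 32 BAT reads.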

How the data were processed

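The deposited lists give, for each contig, the read count of its intron, which the authors made by trimming adapters, poly-A and poly-T, aligning reads with RUM to mm9 (mouse) or rn4 (rat), builds named in the submitters' processing notes, keeping uniquely mapped intronic reads, clustering them into contigs and removing introns with predicted genes, poly(A) sites, noncoding RNA or only exon-intron junction reads. The count belongs to the intron and was taken once per transcript and intron. Members and gene lists were chosen with earlier results of these data known. Genes are named where they were the most read of a role, among the top introns, furthest apart in a pair of lists, in all mouse lists or in 8 or more introns. Ratios are of reads per 1000000 listed reads, for genes with 32 or more reads in 1 list; shares of reads have exact Clopper-Pearson intervals and shares of genes or introns Wilson intervals, at 95%. Mouse contigs were placed on transcripts and sequence of NCBIM37; the rat genome of the lists' build was not at hand, so rat contigs have no sequence or exon values. No test was run, since each group has 1 pooled list. Alternatives changed contig length (400 nt), read minimum (16 and 32 reads, and 4 times the high minimum), fold (2, 8), scale, members, transcripts and single introns. The code was tested on simulated data. Tools were Python 3.11.15, pandas 2.3.3, numpy 2.4.6, scipy 1.17.1, pysam 0.24.0, matplotlib 3.10.9 and samtools 1.23.1.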

Additional observations from a re-analysis of the deposited data

Results flagged for a closer look

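Adamts2, the procollagen protease, lay on opposite sides in the 2 species by summed reads: its log2 ratio of dendrite over soma was 3.21 in mouse and -9.37 in rat, the latter from 1 intron with 13774 soma reads. Per nt of contig, a scale added after seeing the data, the values were 0.04 in mouse, near no difference, and -7.09 in rat. The rat intron is a single contig of 1121 nt, so that with contigs of at most 400 nt 12 soma and 10 dendrite reads were left, too few for a ratio, and the contrast was gone. The difference was not tested, since each list holds 1 value per intron.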

How the results depend on the processing

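No paired analysis was possible because each list pools the libraries of its group, and no result here comes from a test; for the same reason no replicate could be left out. Of 161 values under other settings 93 stayed within their limits (the counting interval, or 1.5 times a count) and 68 moved. Values are given in the order mouse dendrites, mouse somas, rat dendrites, rat somas, BAT cells, cardiomyocytes. The members' share of listed reads became 0.95%, 1.13%, 0.348%, 0.166%, 0.896% and 1.46% without the top member intron, and 1.08%, 1.60%, 0.660%, 0.854%, 0.990% and 1.83% without the top intron of the whole list. Without genes that share only a prefix it was 1.04%, 1.54%, 0.589%, 0.970% and 1.78% (rat somas stayed within the limit), and with 1 transcript per gene 1.54% in mouse somas and 1.85% in cardiomyocytes. With contigs of at most 400 nt it was 1.71% in mouse somas, 0.0514% in rat somas, 0.670% in BAT cells and 0.897% in cardiomyocytes, and without introns on annotated exons, a setting chosen after seeing the data, 1.14%, 1.83%, 1.03% and 2.25% in the mouse lists. The share of members past the high read minimum was 81.5%, 43.4%, 41.2%, 79.3% and 67.9% at 32 reads (all but rat dendrites; over all genes 62.4%, 54.1%, 55.1%, 67.9% and 64.8%), 4.94%, 7.55%, 3.57%, 34.1% and 34.0% at 4 times the minimum (all but rat somas; over all genes 6.34%, 5.19%, 3.48%, 20.7% and 26.2%), and with contigs of at most 400 nt 0.00% in rat somas, 30.8% in BAT cells and 28.6% in cardiomyocytes. The mean contig length at that limit was 230, 242, 212, 228, 201 and 201 nt, and member introns in cardiomyocytes fell to 95. With 16 or more reads per intron 27 members were listed in mouse somas, 16 in rat dendrites and 8 in rat somas, and members in both lists were 24 for mouse dendrites and somas, 4 for the rat lists, 24 for somas and BAT cells and 12 for somas and cardiomyocytes. The listed share of annotated introns at that minimum, also chosen after seeing the data, was 5.60%, 2.87%, 6.83% and 5.53% in the mouse lists, beside 9.08%, 6.55%, 13.0% and 9.44% of all introns. Members 4-fold higher per nt of contig were 17 in mouse dendrites, 9 in BAT cells and 17 in cardiomyocytes (beside 26.1%, 21.1% and 35.7% of all genes). With contigs of at most 400 nt in rat somas, members 4-fold higher were 1 in each rat list. The share over all genes was not taken for that rat setting, so nothing is read from these counts. With at least 32 reads in both lists, also added after seeing the data, they were 6 in mouse dendrites and 3 in mouse somas of 20 compared, 1 in rat dendrites and 0 in rat somas of 3, and 7 in BAT cells of 32. Scaling by library totals moved the median log2 ratio of all genes by 0.48 in mouse and -0.45 in rat, and scaling per nt by -0.73 in mouse, -0.01 in rat and -1.21 for BAT cells over cardiomyocytes; both scalings were chosen after seeing the data.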
